A study of Capra hircus with 6 samples.

Results

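The collagen chain genes of goat (Capra hircus) adipose mesenchymal stem cells were described across 6 RNA sequencing libraries. Members were the rows whose identifier has the form of a collagen chain symbol (COL, a type number, A and a chain number), which gave 40 of the 16285 genes in the deposited tables. They comprised 11 fibrillar, 9 network-forming, 4 beaded-filament, 8 FACIT (fibril-associated), 3 transmembrane, 2 multiplexin and 1 anchoring-fibril chain, with 2 chains of other kinds. Mesenchymal stem cells of this kind are isolated from the stroma of fat and can be driven towards the adipocyte fate in culture. A control group of 3 libraries carried the genotype label WT, and a second group of 3 libraries was labelled as overexpressing YAP, a transcriptional coactivator restrained by the Hippo kinase pathway. All 6 libraries shared a label of adipogenic differentiation as treatment. The labels gave no time of differentiation, passage, vector, clone or animal. Nor did they tie replicates to separate cultures, so p-values reflect the spread among the 6 libraries alone, and that spread may be technical. The series design text named an overexpression of TAZ, a relative of YAP, whereas the sample titles and genotypes named YAP, and groups were taken from the sample labels.

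Collagens are secreted or membrane-bound proteins in which chains wind into a triple helix, and each type is built from its own set of chains. Fibrillar collagens, led by types I and III, form the tensile fibrils of connective tissue, and type V and type XI chains help set fibril diameter. Type IV collagen is the sheet-forming network of basement membranes, type VI forms beaded microfilaments around cells and is abundant in fat, and FACIT collagens sit on the surface of fibrils. New chains are hydroxylated, glycosylated and folded in the endoplasmic reticulum, exported in large carriers and trimmed outside the cell by dedicated proteases.

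Levels are FPKM, that is, fragments per kilobase corrected for library size, so levels of different genes can be set side by side. Library totals recovered from the FPKM steps ran from 32593380 to 37131015 counted fragments. The level of YAP1, the gene named by the labels, was 27.2 ± 1.54 FPKM for controls and 27.4 ± 1.57 for the other group (SD, n = 3 each), a log2 change of 0.01 with limma adjusted p = 0.95. That group is therefore called the libraries labelled YAP, and directions refer to the label and not to a measured rise in YAP1. All 10 adipose stromal markers were detected, with summed levels of 15107 to 16135 FPKM in controls and 14603 to 15663 in those labelled YAP. VIM made up most of that sum, at 12566 ± 585 and 10490 ± 578 FPKM, so the sum says little of the other markers. Adipocyte markers were low despite the treatment label: PPARG, LPL and LEP were under 0.1 FPKM in every library, and the summed level of the 7 adipocyte markers was 18.5 to 23.0 FPKM in controls and 10.2 to 12.4 in those labelled YAP. CIDEC, a lipid droplet protein, made up most of that sum and fell from 18.3 ± 1.31 to 9.56 ± 0.85 FPKM (limma adjusted p = 3.2e-05). FABP4 (row LOC100861279) was at 1.01 to 3.87 FPKM, with overlapping groups (limma adjusted p = 0.1). ADIPOQ and PLIN1 did not exceed 0.24 FPKM. PLIN1 was higher without overlap, at means of 0.130 and 0.199 FPKM, so the lower sum is mainly that of CIDEC. In bulk RNA, fewer cells of a type and less RNA per cell cannot be told apart.

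Of the 40 collagen genes, 21 passed the filter of at least 1 FPKM in at least 3 libraries and were tested, and 19 were below it. Among the 21, 13 rose, 3 fell and 5 did not pass the threshold of 0.05 on the limma adjusted p. Over all 10761 tested genes, 12.9% rose, 23% fell and 35.9% changed in either direction. The median log2 change of the 21 tested collagens was 0.47, beside -0.10 for all tested genes, where a log2 change is the difference of log2(FPKM + 1) between the libraries labelled YAP and the controls. The added 1 FPKM shrinks the log2 change of genes at a few FPKM, so their sizes are not comparable with those of abundant genes. The groups did not overlap for 16 of the 21, the 13 that rose and the 3 that fell, whereas 16.7% of all tested genes lay wholly above control, 31.6% wholly below and 48.3% on either side. COL8A1 passed the filter only through the libraries labelled YAP and COL13A1 only through the controls, so both had to differ. Without them, 12 of 19 rose and 2 fell. After median-of-ratios scaling, which moved the median of all genes from -0.10 to -0.02, 13 collagens rose and 3 fell as before, while the share of rises among all called genes went from 36% to 53.1%. The share of rises among called collagens was 81.2% under both scalings.

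By class, 6 of 8 tested fibrillar chains rose and 1 fell, with a median log2 change of 0.51. Network chains gave 3 rises and no fall among 4 tested, with a median of 0.58, or 2 rises among 3 without COL8A1, and all 3 tested FACIT chains rose, with a median of 0.47. Beaded-filament chains gave no rise and 1 fall among 3 tested, with a median of -0.00. The single tested transmembrane chain was COL13A1, whose direction the filter of 1 FPKM fixed, so at that filter the class gives no result of its own. Under a lower filter of 0.1 FPKM in at least 3 libraries, COL13A1 and COL23A1 fell and COL17A1 did not pass. The single tested multiplexin did not pass, and the anchoring-fibril chain rose. These are counts over few genes, and differences between classes were not tested.

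**Figure D1:**
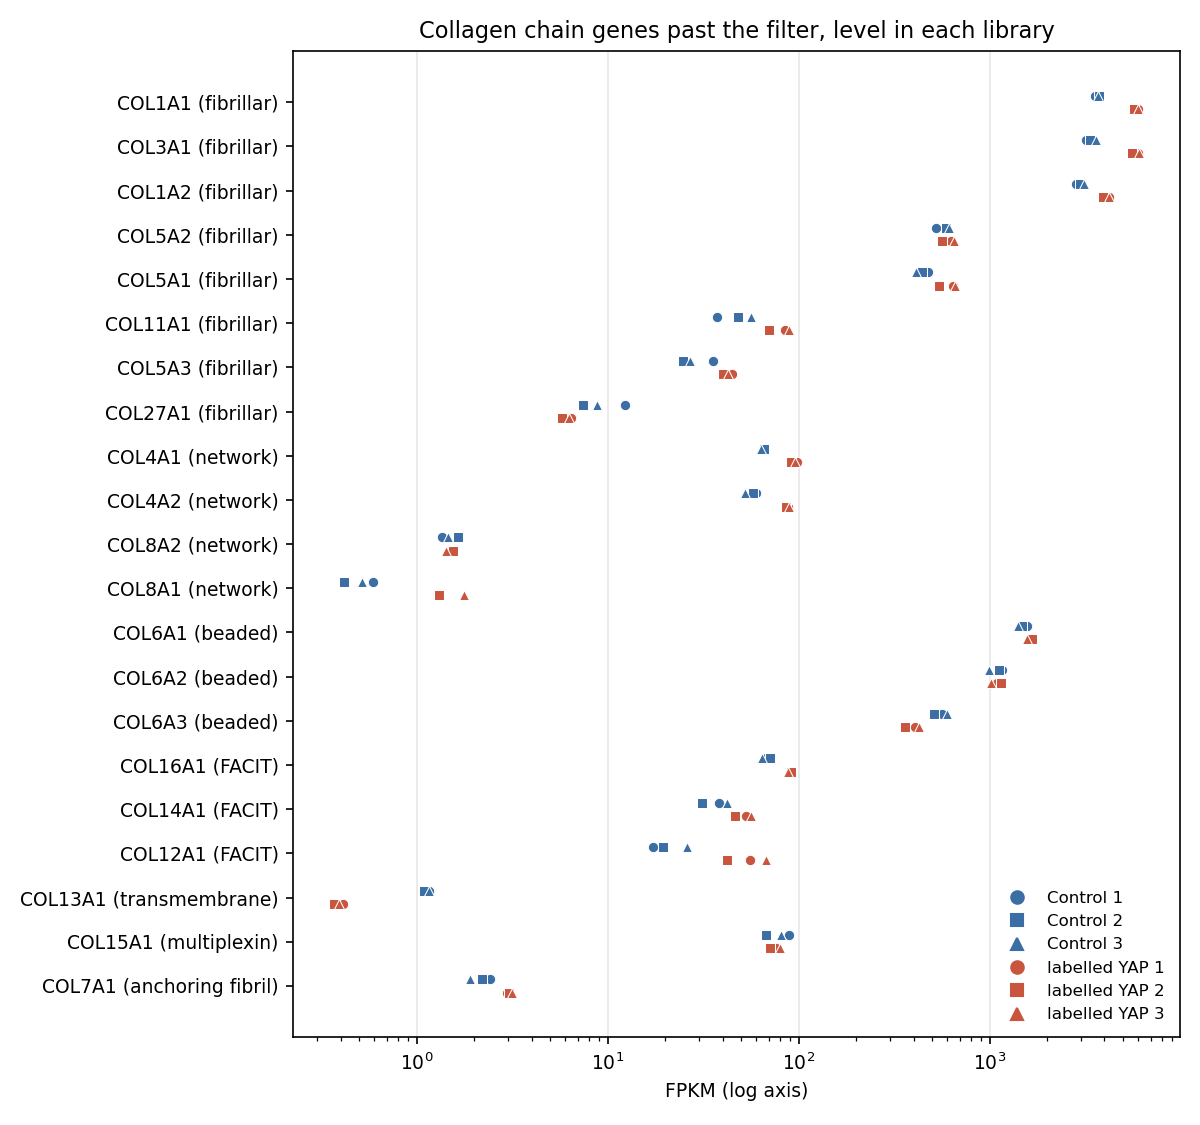
Level of each of the 21 tested collagen genes in each library, in FPKM on a log axis, with blue symbols for the 3 control libraries and red for the 3 libraries labelled YAP, grouped by class. The red symbols lie to the right of all blue ones for 13 genes and to the left for COL27A1, COL6A3 and COL13A1.

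Type I and type III collagen were the most abundant. COL1A1, the major chain of type I collagen, was at 3590, 3726 and 3707 FPKM in control replicates 1 to 3 and at 5982, 5698 and 5989 in YAP replicates 1 to 3. Every library labelled YAP lay above every control, and the spread inside a group was small beside the gap. COL1A1 rose from 3674 ± 73.9 to 5890 ± 166 FPKM (SD, n = 3), a log2 change of 0.68 (SE 0.09, limma adjusted p = 0.00017).

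COL3A1, the single chain of type III collagen, was at 3202, 3353 and 3600 FPKM in controls and 6019, 5589 and 6101 in those labelled YAP. The groups did not overlap, and the mean went from 3385 ± 201 to 5903 ± 275 FPKM, the larger rise of the pair (log2 change 0.80 with SE 0.10, limma adjusted p = 8.1e-05). By group mean it was the gene with rank 5 of all genes in controls and rank 2 in those labelled YAP, while COL1A1 went from rank 4 to rank 3. COL1A2, the partner chain of COL1A1, was at 2823, 2966 and 3121 FPKM in controls and 4208, 3927 and 4232 in those labelled YAP. It also rose without overlap (2970 ± 149 to 4123 ± 169 FPKM, a log2 change of 0.47 with SE 0.09 and limma adjusted p = 0.0022).

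Type V chains, which co-assemble with type I in fibrils, did not move as one. COL5A1 was at 476.9, 442.4 and 412.9 FPKM in controls and 644.7, 544.7 and 661.0 in those labelled YAP, with no overlap (log2 change 0.47 with SE 0.10, limma adjusted p = 0.0032). COL5A3, the least abundant of the type V chains, was at 35.6, 24.9 and 27.1 FPKM in controls and 44.72, 39.99 and 42.70 in those labelled YAP and rose by 0.54 on the log2 scale (SE 0.12, limma adjusted p = 0.0044). COL5A2 was at 526.7, 590.3 and 615.5 FPKM in controls and 626.6, 563.2 and 649.3 in those labelled YAP, so the groups overlapped. Its log2 change was 0.09 (95% confidence interval -0.11 to 0.29, limma adjusted p = 0.48), which leaves room for a rise of up to 0.29 or a fall of up to 0.11.

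The annotation behind the tables split sequence called COL5A1 over several rows, which limits what the COL5A1 row covers. Its gene model spanned 3678 bases, and the rows LOC102187872 and LOC108635555, given the symbol Col5a1 or named as COL5A1-like, spanned 1292 and 2954 bases. LOC102187872 went from 500.9 ± 92.0 to 670.3 ± 141 FPKM with overlapping groups (log2 change 0.41, limma adjusted p = 0.067). LOC108635555 went from 684.2 ± 74.8 to 810.3 ± 43.0 FPKM without overlap (log2 change 0.25, limma adjusted p = 0.064). Both pieces had the sign of the COL5A1 row and neither passed the threshold. One more such row, LOC108637488, named as COL19A1-like, held at most 2 reads in a library.

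COL11A1, the type XI chain found in cartilage and in developing or remodelling fibrils, was at 37.5, 48.2 and 56.5 FPKM in controls and 84.8, 69.6 and 88.7 in those labelled YAP. All libraries labelled YAP lay above the controls, and the rise was 0.77 on the log2 scale (SE 0.14, limma adjusted p = 0.0013), close in size to that of COL3A1. COL27A1, a fibrillar chain best known from cartilage, moved the other way, at 12.4, 7.38 and 8.77 FPKM in controls and 6.46, 5.77 and 6.23 in those labelled YAP. Control replicate 1 stood well above its group, and the lowest control lay above the highest library labelled YAP. The log2 change was -0.53 (SE 0.14, limma adjusted p = 0.015), or -0.34 (limma adjusted p = 0.038) without control replicate 1, and with no filter on low values the adjusted p was 0.068.

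**Figure D2:**
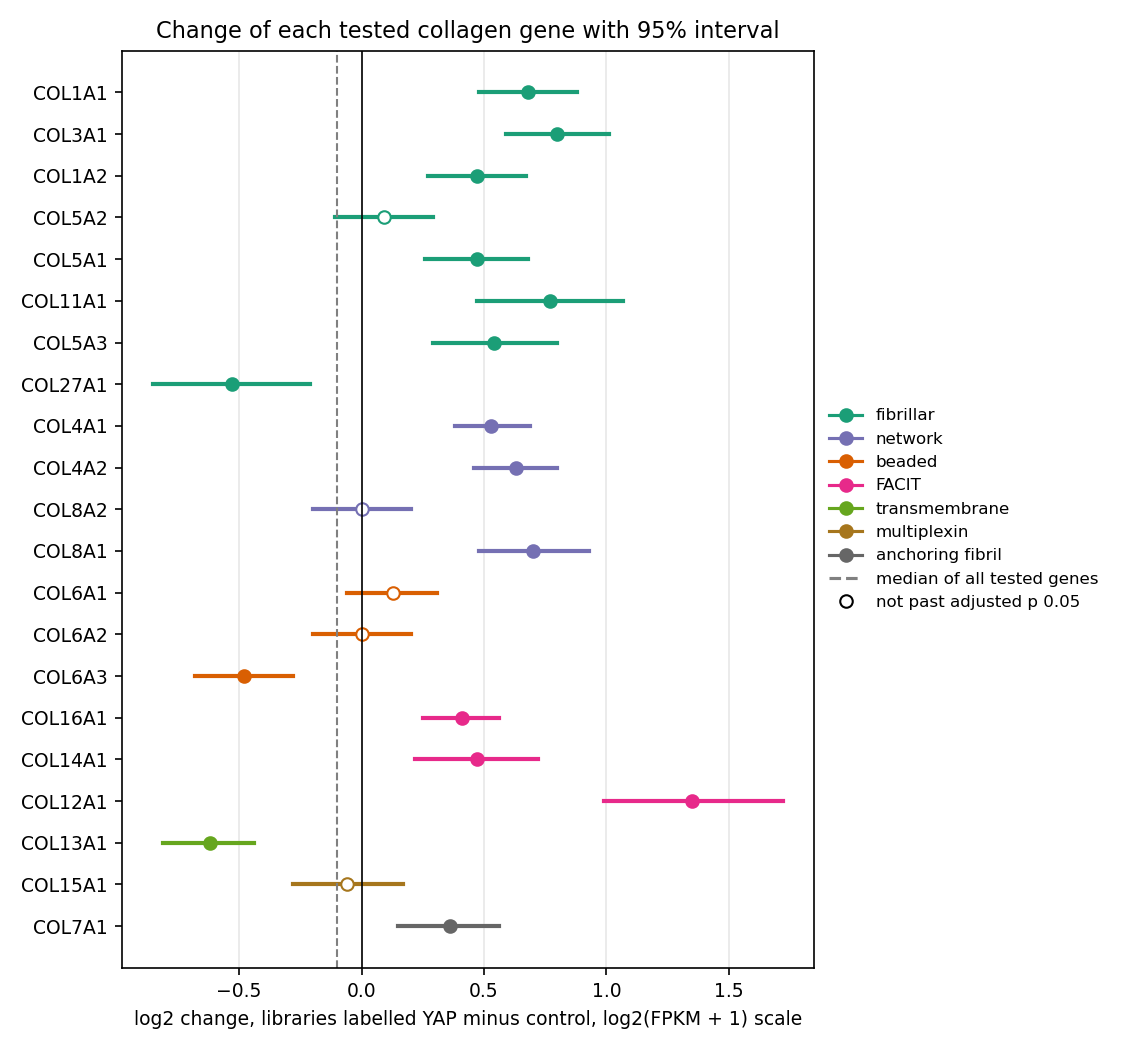
Log2 change of each tested collagen gene, libraries labelled YAP minus control on the log2(FPKM + 1) scale, with its 95% confidence interval, coloured by class. Open circles mark the 5 genes not past the limma adjusted p of 0.05, and the dashed line marks the median of all tested genes at -0.10. COL12A1 lies farthest to the right at 1.35, and COL13A1 farthest to the left at -0.62.

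Both chains of the common basement membrane collagen rose. COL4A1 was at 66.2, 65.8 and 63.5 FPKM in controls and 98.0, 91.2 and 95.4 in those labelled YAP (log2 change 0.53 with SE 0.07, limma adjusted p = 0.0002). COL4A2, its partner in the same trimer, was at 59.9, 57.5 and 52.4 FPKM in controls and 88.0, 86.3 and 89.5 in those labelled YAP (log2 change 0.63 with SE 0.08, limma adjusted p = 0.0001). Neither gene overlapped between groups. COL4A1 and COL4A2 are neighbours in RefSeq assembly ARS1.2, with no protein-coding gene between them.

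The short-chain network collagen type VIII differed between its chains. COL8A1 was at 0.590, 0.414 and 0.515 FPKM in controls and 1.30, 1.31 and 1.78 in those labelled YAP, on 74 to 109 and 225 to 348 reads. It rose 2.88-fold in FPKM without overlap, and its log2 change of 0.70 (SE 0.10, limma adjusted p = 0.00037) is understated by the added 1 FPKM. With a pseudocount of 0.1 it was 1.36. Since COL8A1 passed the filter of 1 FPKM through the libraries labelled YAP alone, that filter fixed its direction, and these values are given as a description. A lower filter of 0.1 FPKM, which COL8A1 passed in every library, does not fix it. There the rise was 0.70 (limma adjusted p = 0.00031). COL8A2 was at 1.35, 1.65 and 1.45 FPKM in controls and 1.49, 1.54 and 1.41 in those labelled YAP. Its groups overlapped, with a log2 change of -0.00 (95% confidence interval -0.20 to 0.20, limma adjusted p = 1).

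Type VI collagen needs 3 chains for its trimer, and here the chains parted. COL6A3, the long chain that carries the cleaved fragment endotrophin, was at 560.3, 510.9 and 597.3 FPKM in controls and 408.5, 362.8 and 425.8 in those labelled YAP. Every library labelled YAP lay below every control, and COL6A3 fell from 556.2 ± 43.4 to 399.0 ± 32.6 FPKM (a log2 change of -0.48 with SE 0.09 and limma adjusted p = 0.0021). COL6A1 was at 1572, 1485 and 1402 FPKM in controls and 1622, 1679 and 1566 in those labelled YAP, and COL6A2 was at 1159, 1127 and 991.8 FPKM and 1097, 1151 and 1021. Both overlapped between groups.

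The log2 change of COL6A1 was 0.13 (95% confidence interval -0.06 to 0.31, limma adjusted p = 0.27), and that of COL6A2 was -0.00 (-0.20 to 0.20, limma adjusted p = 0.99). After scaling to the summed FPKM of tested genes other than collagens, COL6A1 passed the threshold at 0.20 (limma adjusted p = 0.036). COL6A1 and COL6A2 are direct neighbours in the RefSeq annotation. COL6A6 was above 0 in control replicate 2 alone, at 0.00737 FPKM, and COL6A4 and COL6A5 were not analysed here.

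On the log2(FPKM + 1) scale the largest change of a tested collagen was in the FACIT class, whereas as a ratio of FPKM the low genes COL13A1 and COL8A1 differed more. COL12A1, which coats type I fibrils in tissues under tension, was at 17.3, 19.6 and 25.9 FPKM in controls and 55.4, 42.4 and 67.6 in those labelled YAP. The groups did not overlap, although the libraries labelled YAP were widely spread, with a coefficient of variation of 22.9%. COL12A1 rose 2.64-fold, from 20.9 ± 4.47 to 55.1 ± 12.6 FPKM (a log2 change of 1.35 with SE 0.17 and limma adjusted p = 0.00011).

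COL16A1, a FACIT chain with broad expression in connective tissue, was at 67.8, 70.6 and 64.6 FPKM in controls and 90.5, 91.1 and 88.0 in those labelled YAP, among the tightest groups of all collagens. It rose by 0.41 on the log2 scale (SE 0.07, limma adjusted p = 0.0014). COL14A1, which binds fibrils and limits their lateral growth, was at 38.4, 31.3 and 42.3 FPKM in controls and 52.9, 46.4 and 56.6 in those labelled YAP and rose by 0.47 (SE 0.11, limma adjusted p = 0.0076). All libraries labelled YAP were above all controls for both genes.

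COL13A1, a transmembrane collagen of cell adhesion sites, was at 1.16, 1.09 and 1.16 FPKM in controls and 0.408, 0.367 and 0.390 in those labelled YAP. The groups were far apart, on 117 to 129 reads against 38 to 48. Control was 2.93-fold higher, and the log2 change was -0.62 (SE 0.08, limma adjusted p = 0.00021), or -1.34 with a pseudocount of 0.1. Since COL13A1 passed the filter of 1 FPKM through the controls alone, that filter fixed its direction, and these values are given as a description. A lower filter of 0.1 FPKM, which COL13A1 passed in every library, does not fix it. There the fall was -0.62 (limma adjusted p = 6.4e-05).

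COL15A1, a multiplexin of the basement membrane zone, was at 89.6, 67.7 and 80.5 FPKM in controls and 76.4, 71.0 and 79.9 in those labelled YAP. The groups overlapped (log2 change -0.06, 95% confidence interval -0.28 to 0.17, limma adjusted p = 0.69). COL7A1, the anchoring-fibril chain best known from skin, was at 2.42, 2.21 and 1.90 FPKM in controls and 2.96, 3.05 and 3.17 in those labelled YAP. It rose without overlap (log2 change 0.36 with SE 0.09, limma adjusted p = 0.013, or 0.48 with a pseudocount of 0.1).

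The 19 collagens below the filter included 6 that reached 0.1 FPKM in at least 3 libraries. They were tested with a lower filter of 0.1 FPKM, under which 14 of 27 collagens rose and 5 fell, beside 12.6% and 20.6% of all genes. They were also tested with limma-voom on recovered reads for genes with at least 10 reads in 3 libraries, a fit chosen after seeing the data, under which 15 of 27 rose and 5 fell, beside 16.1% and 13.7%. The values of these 6 genes rest on 7 to 139 reads in a library.

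COL18A1, the multiplexin that carries the endostatin fragment, was at 0.264, 0.151 and 0.125 FPKM in controls and 0.595, 0.554 and 0.735 in those labelled YAP. The groups did not overlap, a 3.49-fold rise in FPKM that passed both tests (limma adjusted p = 0.00088 with the lower filter, log2 change 1.94 and adjusted p = 0.00024 with limma-voom). It differed from COL15A1, the other multiplexin, whose groups overlapped, though the difference between them was not tested. COL4A5, a basement membrane chain, was at 0.0304, 0.103 and 0.0571 FPKM in controls and 0.173, 0.163 and 0.168 in those labelled YAP. It did not overlap between groups, and its call depended on the test, with limma adjusted p = 0.083 under the lower filter and 0.0071 with limma-voom.

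COL23A1, a transmembrane collagen, was at 1.95, 1.42 and 0.826 FPKM in controls and 0.299, 0.399 and 0.228 in those labelled YAP. Its controls were widely spread and all lay above the other group, a 4.54-fold difference that passed both tests (limma adjusted p = 0.0015 with the lower filter, log2 change -2.02 and adjusted p = 0.0022 with limma-voom). COL21A1, a FACIT chain, was at 0.637, 0.445 and 0.650 FPKM in controls and 0.337, 0.140 and 0.161 in those labelled YAP. It fell in both tests (limma adjusted p = 0.006 with the lower filter and 0.0053 with limma-voom), the opposite direction to the 3 abundant FACIT chains.

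COL24A1, a fibrillar chain, averaged 0.244 FPKM in controls and 0.288 in those labelled YAP, and COL17A1, a transmembrane chain of epithelial cells, 0.203 and 0.207. Both overlapped between groups, with limma adjusted p of 0.54 and 0.99 under the lower filter. The other 13 members were under 0.1 FPKM in at least 4 libraries. COL9A3, a FACIT chain of cartilage, had the highest levels among them, on 2 to 5 reads in controls and 4 to 15 in those labelled YAP. COL9A2 had at most 3 reads in a library. COL11A2 had 1 to 9 reads in controls and COL28A1 1 to 2, and both had 0 in the other group, where a count of 0 allows up to 3 reads. COL2A1, the main collagen of cartilage, and COL10A1, that of hypertrophic cartilage, were above 0 in at most 2 libraries, as were COL4A4, COL4A6, COL6A6, COL19A1, COL20A1 and COL26A1. These 8 genes did not exceed 0.0138 FPKM, and in so few libraries their reads can be given only as the smallest number that fits. COL4A3 was at 0 throughout. With no filter on low values, COL4A3 was still not tested, and none of the others of these 13 members passed the threshold (limma adjusted p = 0.19 for COL11A2 and 0.3 for COL28A1). The added 1 FPKM shrinks differences at such levels, so that fit cannot settle whether these genes changed.

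**Figure D3:**
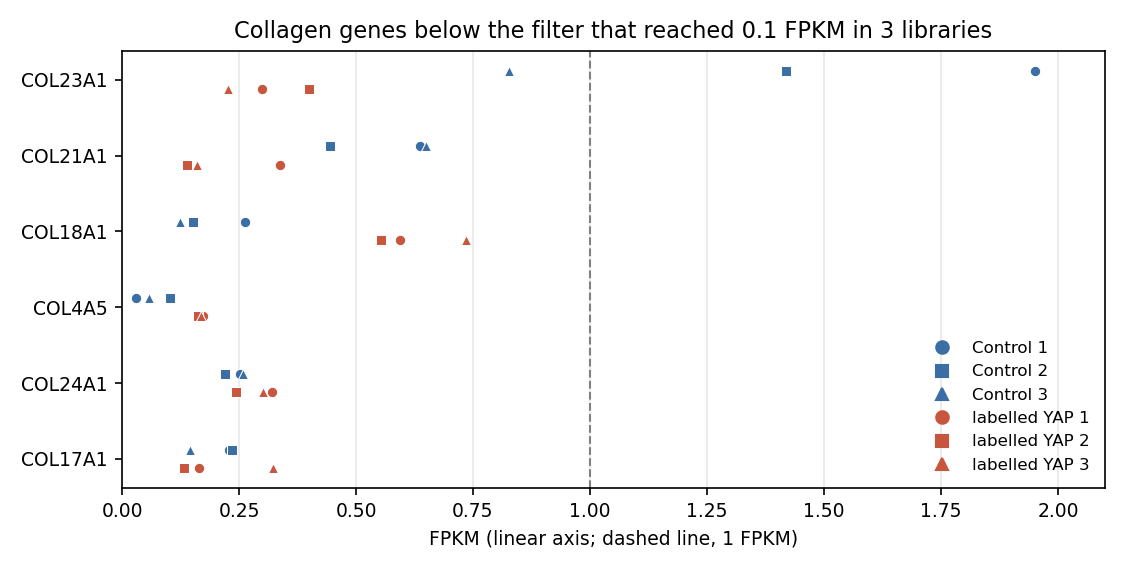
FPKM in each library of the 6 collagen genes below the filter that reached 0.1 FPKM in at least 3 libraries, on a linear axis with a dashed line at 1 FPKM. Blue control symbols lie above red ones for COL23A1 and COL21A1 and below them for COL18A1 and COL4A5, while COL24A1 and COL17A1 overlap.

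The make-up of the collagen transcripts shifted. Collagen genes took 8.25 ± 0.19% of counted fragments in controls and 11.7 ± 0.41% in those labelled YAP, and their summed level went from 14607 ± 267 to 20849 ± 678 FPKM. Fibrillar chains made up 74.6, 76.4 and 77.6% of summed collagen FPKM in controls and 83.1, 81.9 and 83.6% in those labelled YAP. Beaded-filament chains made up 22.9, 21.4 and 20.1% and 14.7, 15.9 and 14.2%. Neither share overlapped between groups, yet the summed level of the beaded chains was 3135 ± 150 FPKM in controls and 3111 ± 90.9 in those labelled YAP and did overlap. The summed fibrillar level was 11137 ± 423 and 17275 ± 728 FPKM, so the lower beaded share went with a higher fibrillar sum. COL1A1, COL1A2 and COL3A1 together held 68.6 ± 1.54% and 76.3 ± 0.47% of the summed level, and network and FACIT chains each stayed near or below 1%. These sums and shares leave out the rows LOC102187872 and LOC108635555, so the fibrillar figures hold only part of the sequence called COL5A1. Ratios and shares are given as descriptions, with no test.

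Ratios between chains of a trimer varied with the group for some types. COL1A1 to COL1A2 was 1.27, 1.26 and 1.19 in controls and 1.42, 1.45 and 1.42 in those labelled YAP. COL5A1 to COL5A2 was 0.906, 0.749 and 0.671 in controls and 1.03, 0.967 and 1.02 in those labelled YAP. Both ratios were higher in every library labelled YAP than in any control. The ratio of COL5A1 to COL5A2 uses the COL5A1 row alone, without LOC102187872 and LOC108635555.

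In type VI the long chain was lower relative to the others in the libraries labelled YAP. COL6A3 to COL6A1 was 0.357, 0.344 and 0.426 in controls and 0.252, 0.216 and 0.272 in those labelled YAP. COL6A1 to COL6A2 was 1.36, 1.32 and 1.41 in controls and 1.48, 1.46 and 1.53 in those labelled YAP, above control although neither gene passed the test. COL4A1 to COL4A2, by contrast, was 1.11, 1.14 and 1.21 in controls and 1.12, 1.06 and 1.07 in those labelled YAP, with overlap. The ratio of COL3A1 to COL1A1 was 0.892, 0.900 and 0.971 in controls and 1.01, 0.981 and 1.02 in those labelled YAP, a narrow separation.

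**Figure D4:**
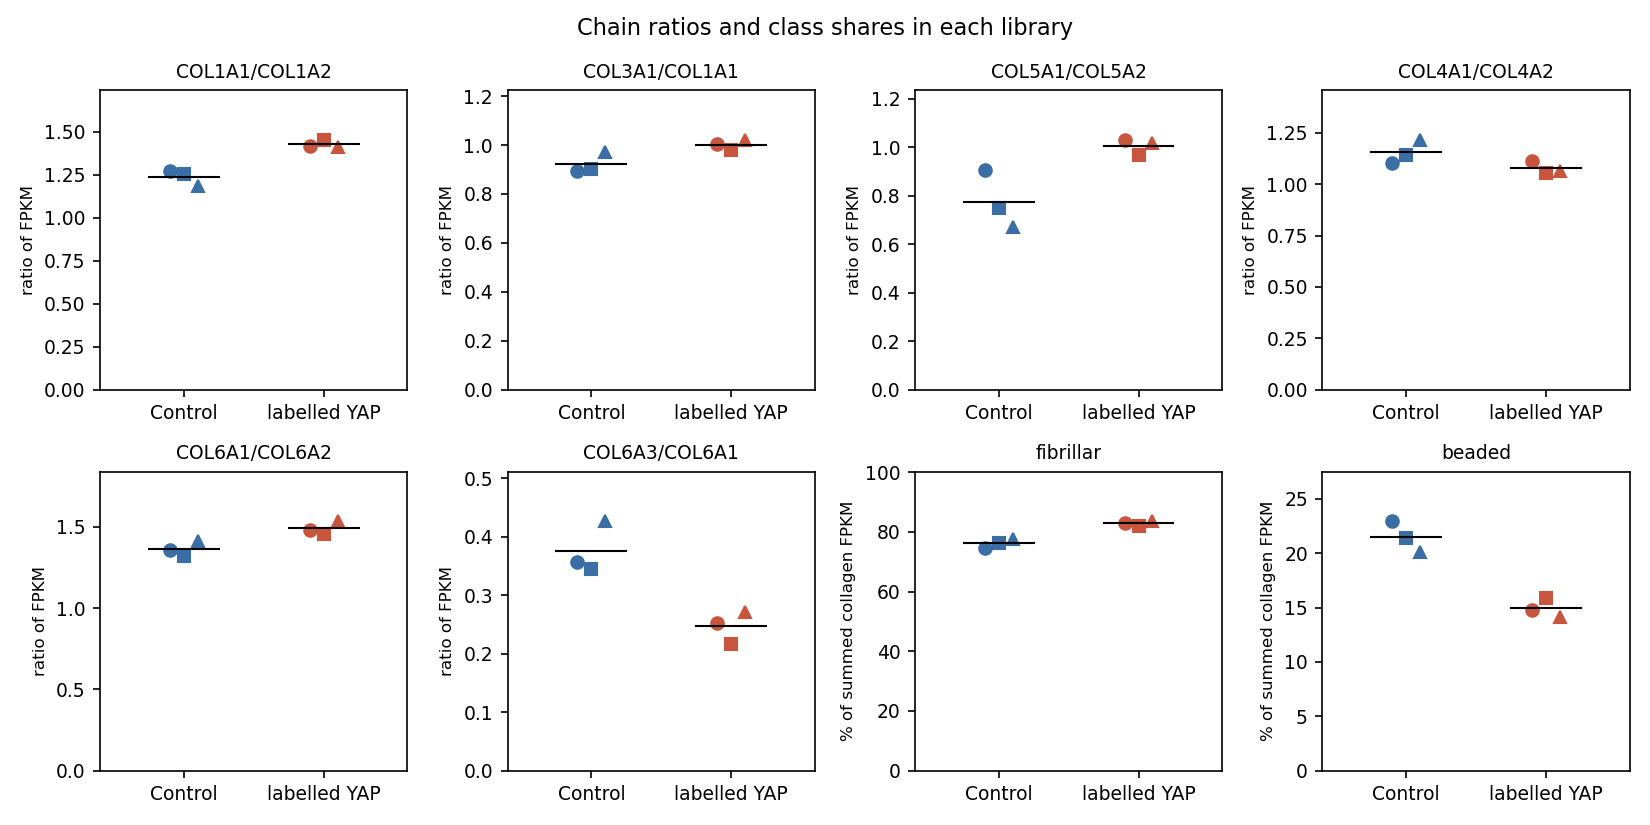
Ratios of FPKM between chains (6 panels) and the fibrillar and beaded shares of summed collagen FPKM in percent (2 panels), with 1 symbol for each library and a line at the group mean. COL4A1 to COL4A2 overlaps between groups, while COL6A3 to COL6A1 and the beaded share are lower in all 3 libraries labelled YAP.

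Inside the group labelled YAP the collagens were not evenly ordered. YAP replicate 2 was the lowest of its group for 15 of 21 tested collagens and for all 8 fibrillar chains, where it was the lowest for 40.9% of all tested genes. YAP replicate 3 was the highest for 13 of 21, beside 40.5% of all tested genes. YAP replicate 2 also had the lowest depth, 32593380 counted fragments, and the part of depth in this order was not tested. Without YAP replicate 2, 13 collagens rose and 3 fell, as with it, beside 11.7% and 20.4% of all tested genes.

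In the deposited annotation, 33 of the 40 collagens carried the KEGG pathway Protein digestion and absorption, out of 95 genes with it. ECM-receptor interaction and Focal adhesion were each given to 15 of the 40. The GO term extracellular matrix was given to 33 of the 40, of 156 genes in all. COL3A1 and COL5A2, of which COL3A1 rose and COL5A2 did not pass the threshold, are direct neighbours in the RefSeq annotation.

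Genes that modify and fold collagen chains changed in part. Of 20 listed genes, 19 were tested, 6 rose and 1 fell, with a median log2 change of 0.06, beside 12.9% higher, 23% lower and a median of -0.10 over all tested genes. The smallest adjusted p in the list was that of P4HA2. P4HA2 (row LOC102189116), a catalytic subunit of prolyl 4-hydroxylase, was at 380.1, 363.7 and 372.0 FPKM in controls and 603.7, 589.7 and 586.5 in those labelled YAP (log2 change 0.67, limma adjusted p = 4e-05). P4HA1, the related subunit, rose from 69.4 ± 11.1 to 102.9 ± 6.40 FPKM (limma adjusted p = 0.0022), while a further subunit, P4HA3, had a log2 change of -0.08 (limma adjusted p = 0.44). COLGALT1, which adds galactose to hydroxylysine, rose from 109.1 ± 6.13 to 149.7 ± 7.08 FPKM (limma adjusted p = 0.001). PLOD1, a lysyl hydroxylase, rose from 90.4 ± 1.89 to 115.2 ± 1.32 FPKM (limma adjusted p = 0.0028).

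The calls nearest the threshold in that list were less firm. P4HB, the shared subunit of prolyl 4-hydroxylase, rose from 931.7 ± 14.6 to 1088 ± 20.3 FPKM (limma adjusted p = 0.04), but did not pass when any single library was left out, with adjusted p from 0.059 to 0.17. PLOD2, which hydroxylates the lysines used in cross-links, overlapped between groups (limma adjusted p = 0.049), and was not past the threshold without control replicate 1 (0.18), control replicate 2 (0.067), YAP replicate 1 (0.11) or YAP replicate 3 (0.14). FKBP7, a prolyl isomerase of the endoplasmic reticulum and the single fall (limma adjusted p = 0.039), was not past it after median-of-ratios scaling (0.18), nor without control replicates 2 or 3 or YAP replicates 1 or 3 (0.068 to 0.15). SERPINH1, the collagen chaperone HSP47, was at 725.2 ± 61.4 and 802.8 ± 37.6 FPKM (limma adjusted p = 0.21).

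Genes of procollagen export and trimming went both ways, with 3 rises and 4 falls among 15 tested of 19 listed and a median log2 change of -0.09. These counts lie near the 12.9% higher and 23% lower over all tested genes, so the list as a whole gives no result, and single genes are described. The proteases that remove the amino-terminal propeptide moved apart: ADAMTS2 was at 30.3, 27.6 and 30.4 FPKM in controls and 52.5, 48.6 and 51.3 in those labelled YAP (log2 change 0.77, limma adjusted p = 2.2e-05). ADAMTS14 was at 3.11, 4.38 and 3.74 FPKM in controls and 1.34, 1.54 and 1.36 in those labelled YAP (log2 change -0.97, limma adjusted p = 5.5e-05). Neither gene overlapped between groups.

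BMP1, the main protease that removes the carboxy-terminal propeptide, and a relative of it moved apart as well. BMP1 rose from 87.2 ± 6.85 to 108.2 ± 0.93 FPKM (log2 change 0.31, limma adjusted p = 0.01, or 0.057 without YAP replicate 1). Its relative TLL2 was at 26.8, 21.3 and 22.9 FPKM in controls and 11.3, 10.6 and 11.8 in those labelled YAP, a fall of more than its replicate spread (log2 change -1.01, limma adjusted p = 1.5e-05). PCOLCE2, an enhancer of the cleavage by BMP1, fell from 183.4 ± 7.44 to 148.8 ± 3.33 FPKM (limma adjusted p = 0.008, or 0.058 without YAP replicate 1), and PCOLCE had a log2 change of -0.09 (limma adjusted p = 0.52).

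For export, MIA3, which loads procollagen into carriers, fell from 17.9 ± 2.18 to 13.9 ± 0.59 FPKM (limma adjusted p = 0.017). It did not pass without YAP replicate 1 (0.077) or after median-of-ratios scaling (0.054). SEC23A, a coat protein of the same carriers, rose from 57.8 ± 10.4 to 84.1 ± 13.3 FPKM (limma adjusted p = 0.0098, or 0.059 without control replicate 1).

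**Figure D5:**
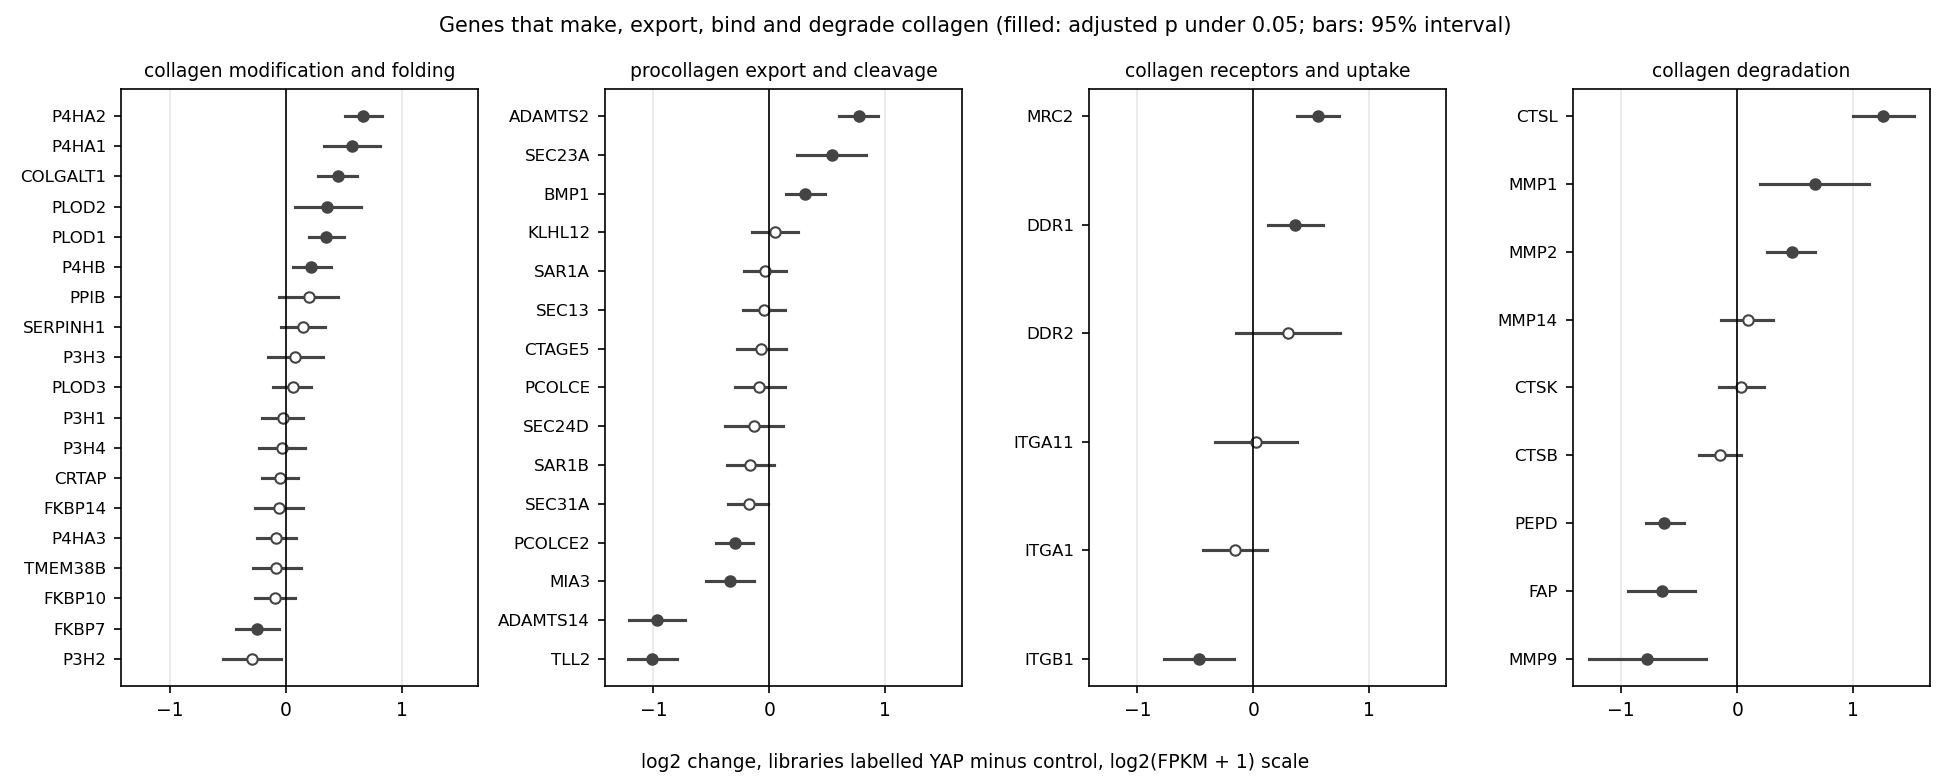
Log2 change of the tested genes of 4 lists, libraries labelled YAP minus control on the log2(FPKM + 1) scale with 95% confidence intervals, for modification and folding, export and cleavage, receptors and uptake, and degradation. Filled points passed the limma adjusted p of 0.05. TLL2 at -1.01 and CTSL at 1.26 lie farthest from 0.

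Collagen receptors and uptake genes gave 2 rises and 1 fall among 6 tested of 11 listed, with a median log2 change of 0.16. With 12.9% of all tested genes higher and 23% lower, so few members say little about the list. MRC2, an endocytic receptor that takes up collagen fragments, was at 34.9, 33.3 and 38.8 FPKM in controls and 55.4, 50.2 and 53.7 in those labelled YAP (log2 change 0.56, limma adjusted p = 0.00036). DDR1, a collagen-binding receptor kinase, rose from 4.92 ± 0.83 to 6.56 ± 0.26 FPKM (limma adjusted p = 0.022), and did not pass without control replicate 2 or 3 or YAP replicate 1 or 3 (0.056 to 0.079). ITGB1, the shared beta subunit of collagen-binding integrins, fell from 357.2 ± 57.2 to 257.9 ± 41.4 FPKM (limma adjusted p = 0.02). It did not pass without control replicate 1 (0.086) or 3 (0.068) or after median-of-ratios scaling (0.053). DDR2, the related receptor kinase, was at 8.81 ± 2.11 and 11.3 ± 3.73 FPKM with overlapping groups (limma adjusted p = 0.28), and passed without YAP replicate 2 (log2 change 0.55, limma adjusted p = 0.016).

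Collagen-degrading enzymes gave 3 rises and 3 falls among 9 tested of 11 listed, with a median log2 change of 0.03, beside 12.9% higher and 23% lower over all tested genes. CTSL, a lysosomal cysteine protease, was at 3.43, 2.37 and 3.38 FPKM in controls and 8.87, 7.86 and 9.22 in those labelled YAP (log2 change 1.26, limma adjusted p = 1.3e-05). MMP2, a gelatinase, rose from 1794 ± 163 to 2472 ± 27.2 FPKM (limma adjusted p = 0.0027). PEPD, which splits the proline dipeptides left by collagen breakdown, was at 50.7, 50.5 and 47.0 FPKM in controls and 31.0, 33.4 and 30.6 in those labelled YAP (log2 change -0.63, limma adjusted p = 9.7e-05). FAP, a membrane protease of activated fibroblasts, fell from 31.5 ± 6.70 to 19.4 ± 1.19 FPKM (limma adjusted p = 0.003).

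The other 2 changes in that list did not pass with some single libraries left out. MMP1, an interstitial collagenase, rose from 50.6 ± 18.3 to 77.9 ± 10.6 FPKM (limma adjusted p = 0.03, or 0.064 without YAP replicate 3). MMP9, another gelatinase, fell from 3.06 ± 1.55 to 1.24 ± 0.04 FPKM (limma adjusted p = 0.022), and did not pass without control replicate 1 (0.11), control replicate 3 (0.071) or YAP replicate 1 (0.05 as rounded).

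Markers of other cell types that can make collagen were read beside these results. Smooth muscle and pericyte markers summed to 386.5 to 610.6 FPKM in controls and 798.3 to 902.3 in those labelled YAP, with 3 of 7 tested. ACTA2 and CNN1, contractile genes, rose and the pericyte proteoglycan gene CSPG4 fell, while the defining genes were near 0, MYH11 at no more than 0.141 FPKM and RGS5 at no more than 0.0161 in any library. Chondrocyte markers summed to 3.03 to 3.99 FPKM in controls and 0.678 to 0.911 in those labelled YAP, mostly SOX9 in controls. SOX9 was at 2.96 ± 0.69 FPKM in controls and 0.452 ± 0.08 in those labelled YAP, and since it passed the filter through the controls alone it had to differ. MATN3 averaged 0.234 and 0.251 FPKM, with ACAN at no more than 0.0384 FPKM in any library.

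Endothelial markers summed to 0.336 to 0.533 FPKM in controls and 0.215 to 0.293 in those labelled YAP, and none passed the filter. CDH5 and KDR were at or near 0. PECAM1 averaged 0.369 FPKM in controls and 0.0446 in those labelled YAP, and VWF 0.0321 and 0.103, opposite directions without overlap. TEK averaged 0.0577 and 0.0931 FPKM with overlap. Epithelial markers summed to at most 0.498 FPKM, with KRT18 at 0. Leukocyte markers summed to 13.8 to 14.4 and 11.6 to 13.6 FPKM, mostly LAPTM5, with PTPRC and AIF1 at or near 0. CD68 fell from 4.53 ± 0.44 to 2.03 ± 0.28 FPKM without overlap (log2 change -0.87, limma adjusted p = 8.3e-05). LAPTM5 did not pass the threshold (limma adjusted p = 0.42). Schwann and neural markers summed to 28.6 to 34.6 and 38.8 to 41.3 FPKM, nearly all S100B, with SOX10 at or near 0. Among the 10 adipose stromal markers, all tested, 5 rose and 2 fell, beside 12.9% higher and 23% lower over all tested genes. The rises included the collagen-binding proteoglycan genes DCN and LUM. The falls were NT5E (170.3 ± 10.9 to 126.8 ± 6.38 FPKM, limma adjusted p = 0.0019) and ENG (150 ± 14.8 to 80.8 ± 4.98 FPKM, limma adjusted p = 2.2e-05). The part of shifts in these markers in the collagen changes was not tested.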

How the data were processed

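Per the labels' protocols, TRIzol RNA went into libraries of the VAHTS Universal V6 kit. The tools in the submitters' processing notes are fastp, HISAT2 and HTSeq, with no version. Genome build, annotation and strand setting were not given in the sources used here. FPKM values were deposited by the authors in 2 tables with the same 16285 genes. A further 6 columns of values, 3 named TAZ and 3 named pcDNA, matched no sample and were not used. The pcDNA columns held exactly the values of the control columns. The name is also that of a vector family, and the labels, which give the controls as WT, do not say whether they carried a vector.

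Whole reads were recovered from the FPKM steps for all 15958 genes above 0, to within 0.05 reads for 100% of values, which gave library totals of 32593380 to 37131015. Reads are the smallest whole numbers that fit, so for genes with few reads the true number may be a multiple. Log2(FPKM + 1) of genes reaching 1 FPKM in 3 or more libraries was fitted with limma 3.58.1 in R 4.3.3 (variance trend, two-sided, Benjamini-Hochberg over 10761 genes, threshold 0.05). The method was tested on simulated data with as many rises as falls. The calls here were uneven, so that test does not cover a shift over most genes. Confidence intervals are 95%. An overlap is counted between lowest and highest libraries.

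Every collagen row is accounted for, with values by library at least for the 2 most abundant of each class with a tested member, where they were tested, and for the 6 largest changes. Of each other list, up to 4 members with the smallest adjusted p among those past the threshold were named, and other list members were named after their values were seen. The members, classes and lists were chosen with earlier results of these data known. All 40 collagens matched RefSeq symbols (ARS1.2, used for names and neighbours only). COL6A4, COL6A5, COL9A1, COL22A1, COL25A1, MMP8 and the ratio of COL4A5 to COL4A6 were not analysed here. Alternatives were a pseudocount of 0.1, 2 other filters, 2 scalings, the replicate number as a block, leaving out each library, and 2 limma-voom fits on recovered reads chosen after seeing the data. The planned count test was not run because the deposited unit is FPKM.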

Additional observations from a re-analysis of the deposited data

How the results depend on the processing

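Of the 16 collagens past the threshold, 15 stayed past it, in the same direction, under all 14 alternatives; COL27A1 was the exception, with no filter on low values (log2 change -0.53, limma adjusted p = 0.068). Among the 15 were COL8A1 and COL13A1, whose direction the filter of 1 FPKM fixed. The collagen count of rises kept within 1.5 times of 13, and that of falls was 3 except for 5 with the 0.1 FPKM filter, 4 with no filter and 5 with limma-voom at 10 reads, where more genes were tested. COL6A1 gained a call by scaling to other tested genes (0.20, adjusted p = 0.036) and with the replicate block (0.13, adjusted p = 0.027).

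Signs turned for 3 genes that were never past the threshold, and the cause was not tested. COL8A2 was at 0.000356 with a pseudocount of 0.1, 0.0505 with median-of-ratios scaling, 0.0411 with scaling to other genes, 0.0927 and 0.0873 with limma-voom, and ran from -0.0398 to 0.047 with a library left out (0.0196 without YAP replicate 3). COL6A2 was at 0.0834, 0.067, 0.0895 and 0.0842 under the scalings and limma-voom, and ran from -0.0705 to 0.0435 with a library left out (0.0417 and 0.0215 without control replicates 1 and 2). COL15A1 was at 0.0288, 0.0125, 0.0353 and 0.03 under the same 4 fits and ran from -0.164 to 0.0359 with a library left out.

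Over all genes, falls went from 2476 to 1507 (median-of-ratios), 1488 (scaling to other genes), 1467 (limma-voom) and 3745 (replicate block), and ranged from 1387 (without YAP replicate 1) to 2273 with a library left out. Modification and folding falls went from 1 to 0 with no filter, both scalings and both limma-voom fits, to 2 with the block, and ranged from 0 to 2 with a library left out. Export and cleavage falls went from 4 to 6 with the block and ranged from 2 to 5 with a library left out. Receptor rises went from 2 to 1 with no filter and ranged from 1 to 3. Receptor falls went from 1 to 3 with the 0.1 FPKM filter, 2 with no filter, 0 under both scalings and 4 with limma-voom at 10 reads, and ranged from 0 to 1.

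Same-numbered libraries deviated together from their group means in pairs 2 and 3 (correlations 0.59 and 0.60) but not in pair 1 (-0.02). Control replicate 1 correlated best with YAP replicate 2 (0.12). Control 3 with YAP 2 gave -0.62, and control 2 with YAP 3 gave -0.56. Deviations within a group of 3 sum to 0, so these correlations cannot settle whether the numbers mark pairs. The labels give no pairing, and the main fit had no block. With the replicate block 14 collagens rose and 3 fell, beside 17% and 34.8% of all tested genes. Collagens under 0.1 FPKM rest on too few reads for a direction.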
